A study of Mus musculus with 1307 samples.

Results

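The cells described here are 78 heart cells with abundant transcripts of Kcnj8 and Abcc9, which encode the pore (Kir6.1) and the regulatory sulfonylurea receptor (SUR2) of the vascular ATP-sensitive potassium (KATP) channel. They were chosen by a rule on the counts of each cell, expressed as counts per 1000000 counts of that cell (CPM). A cell was a member when Kcnj8 and Abcc9 together reached 2500 CPM, Rgs5 reached 1000 CPM, Myh11 stayed under 1000 CPM and the endothelial genes Pecam1, Cdh5, Kdr and Tie1 together stayed under 1000 CPM. Of the 1307 cells of the series 78 met the rule, and all of them lay among the 955 cells of the reporter-strain plates. The 8 genes of the rule are given below as a description and carry no test. The working label of cardiac pericytes came with the markers Vtn, Steap4 and P2ry14 outside the rule. These were chosen with earlier results of these data known, so their levels are a description and no independent check of the label. Vtn exceeded 1000 CPM in 71 of the 78 members and in 64 of the 871 other cells of the same mice, and Steap4 in 72 and 43. P2ry14 did so in 17 members and 2 other cells, and 54 members had a count of it.

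Pericytes are mural cells that sit on capillaries within the basement membrane they share with the endothelium, whereas smooth muscle cells wrap arteries and veins and carry more contractile protein. KATP channels open when cellular ATP is low or ADP is high, which lets potassium leave the cell and makes the membrane potential more negative. In the heart the vascular form of this channel is known for its part in setting coronary tone, and its pore subunit Kcnj8 and partner Abcc9 are used as markers of pericytes in several organs.

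Kcnj8 and Abcc9 are neighbours on chromosome 6 of the mouse genome (GRCm38). Kcnj8 spans positions 142564837 to 142571614 and Abcc9 positions 142587862 to 142702315, both on the minus strand and 16.2 kb apart. The promoter windows of both genes are shown because their transcripts define the cells, and that of Myl9, a myosin light chain gene on chromosome 2 that was lower in members than in Myh11-high cells, is shown for contrast. Each window runs from 250 bases before to 50 bases after the annotated start, 5′ to 3′ on the gene's own strand, from RefSeq on GRCm38.p6. The windows are chr6:142571565-142571864 (minus strand) for Kcnj8, chr6:142702225-142702524 (minus strand) for Abcc9 and chr2:156775214-156775513 (plus strand) for Myl9. Capitals mark CATTCC on either strand, the core of the sites that TEAD factors bind, and the CArG box, the element that serum response factor binds.
Kcnj8: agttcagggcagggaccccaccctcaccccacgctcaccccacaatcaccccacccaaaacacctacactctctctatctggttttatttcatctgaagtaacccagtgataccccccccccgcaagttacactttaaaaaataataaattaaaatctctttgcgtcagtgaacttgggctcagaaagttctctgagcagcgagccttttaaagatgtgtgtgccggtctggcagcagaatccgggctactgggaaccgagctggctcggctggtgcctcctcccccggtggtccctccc
Abcc9: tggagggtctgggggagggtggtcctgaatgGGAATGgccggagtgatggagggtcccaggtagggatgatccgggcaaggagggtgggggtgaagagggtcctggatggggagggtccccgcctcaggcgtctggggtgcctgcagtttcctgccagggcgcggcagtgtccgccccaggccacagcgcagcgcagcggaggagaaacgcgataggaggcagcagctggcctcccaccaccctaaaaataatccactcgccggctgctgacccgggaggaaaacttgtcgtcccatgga
Myl9: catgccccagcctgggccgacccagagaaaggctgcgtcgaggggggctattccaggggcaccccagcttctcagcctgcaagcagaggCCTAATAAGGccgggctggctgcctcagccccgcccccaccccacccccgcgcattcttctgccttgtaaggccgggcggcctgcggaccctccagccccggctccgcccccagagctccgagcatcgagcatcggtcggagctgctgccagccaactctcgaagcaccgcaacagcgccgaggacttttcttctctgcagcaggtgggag
Searched on both strands, the Kcnj8 window held neither motif, the Abcc9 window held 1 CATTCC, read as GGAATG on the strand shown, and the Myl9 window held 1 CArG box. The E-box CANNTG, searched without capitals, occurred 1 time in each window. Of 32851 RefSeq promoter windows of this length, 1.63% held a CArG box, 14.7% held CATTCC and 72.3% held CANNTG. A match is a description of the letters, not of a bound site.

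Hearts were dissociated enzymatically, and single cells were sorted into 384-well plates and sequenced with Smart-Seq2, which reads whole transcripts and uses no molecular identifiers. The members came from 3 mice that carry both ACTA2GFP and CSPG4dsRED, a green fluorescent protein under Acta2 and a red one under Cspg4, so both transgenes are driven in mural cells and in any other cell that uses those promoters. Each of these mice filled a plate of its own, so mouse and plate cannot be told apart, and the sort gate is not stated. The other animals were C57BL/6 mice without reporters and mice with CSPG4dsRED or ACTA2GFP alone, which gave 3 cells each. The series describes adult male mice of 8 to 30 weeks, while the label of double-reporter mouse 3 says female.

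Mouse 1 gave 57 members among 368 cells (15.5%, 95% Clopper-Pearson interval 11.9 to 19.6), mouse 2 gave 13 of 245 (5.31%, 2.86 to 8.90) and mouse 3 gave 8 of 336 (2.38%, 1.03 to 4.64). Among 347 cells of C57BL/6 mouse 1 no member was found, for which the upper end of the same interval is 1.06% and the limit from 3 of the 347 cells is 0.865%. These intervals and limits cover the counting error of cells only, and leave out variation between mice, plates and sorts. With an unstated gate the shares describe plates. Cells held 50476 to 811982 counts. Members of mice 1, 2 and 3 had median depths of 325807, 103020 and 160797 counts and 3967, 3048 and 3914 detected genes, against 348437, 224970 and 211702 counts and 4681, 4527 and 4968 genes in the other cells of the same mice. Members thus carried fewer detected genes than their neighbours in each mouse, and in each mouse their median depth was lower. Counts were summed per mouse, and the mouse was the replicate (n = 3). Members were compared with the 871 other cells of the same mice, with 251 Myh11-high cells (Myh11 of at least 1000 CPM, under both the KATP and the endothelial thresholds), and with 50 below-threshold cells that met every condition of the rule except the 2500 CPM of Kcnj8 and Abcc9.

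No gap in Kcnj8 plus Abcc9 set members apart at 2500 CPM. The 3 members nearest to it stood at 2606, 2759 and 2875 CPM, and the nearest cells outside at 2495, 2343 and 2275 CPM. In the double-reporter mice 83 cells reached 2500 CPM, of which 2 failed the Rgs5 condition, 1 the Myh11 condition and 2 the endothelial condition. Among these 83 cells the lowest Rgs5 value of a member was 2345 CPM and those that failed reached 38.4 CPM. The highest Myh11 value of a member was 841 CPM against 2078 CPM in the cell that failed, and the highest endothelial sum was 773 CPM against 3192 and 3484 CPM.

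**Figure D1:**
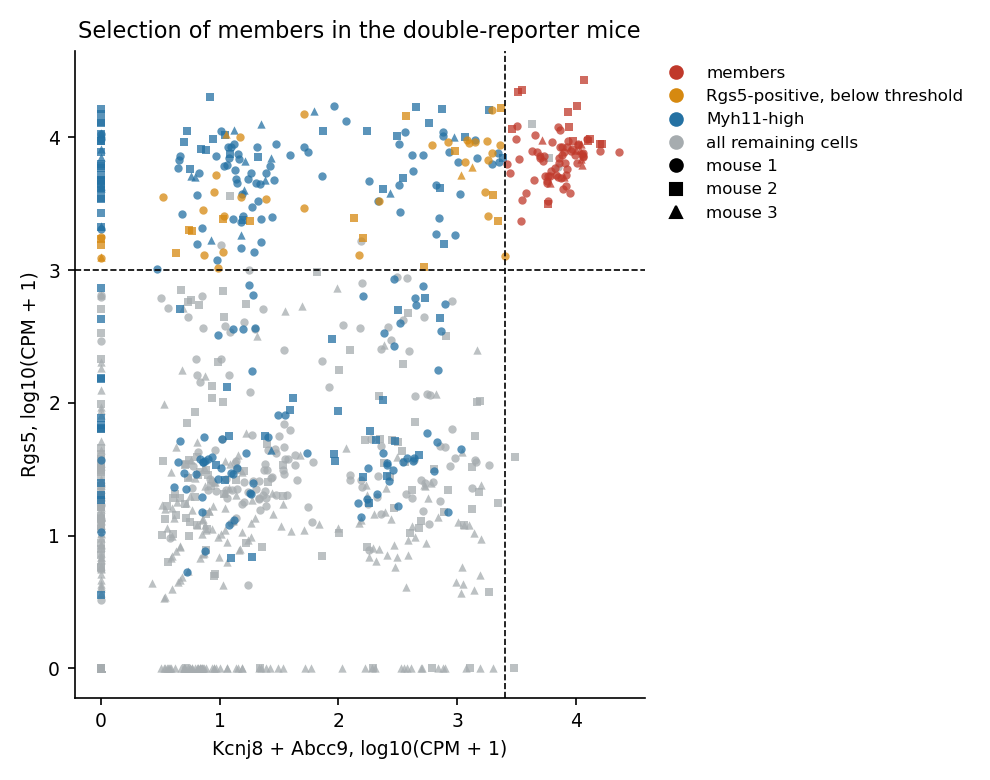
Each point is 1 cell of the double-reporter mice, with Kcnj8 plus Abcc9 on the x axis and Rgs5 on the y axis, both as log10(CPM + 1). Dashed lines mark 2500 and 1000 CPM, and colours separate the 78 members, the 50 below-threshold cells, the 251 Myh11-high cells and the rest. The nearest points on either side of the vertical line stand at 2606 and 2495 CPM.

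As a description of what the rule chose, Kcnj8 stood at 3510, 4043 and 4614 CPM in the members of mice 1, 2 and 3, against 121, 83.4 and 48.1 CPM in all other cells and 88.8, 65.9 and 17.3 CPM in Myh11-high cells. Abcc9 stood at 3330, 5300 and 3700 CPM in members, against 140, 168 and 95.4 CPM in the other cells. Rgs5, a regulator of G-protein signalling, reached 6412, 12496 and 6884 CPM. Both channel transcripts were high in each mouse, and after thinning each cell to 50000 counts both were found in 100% of members, while Kcnj8 was found in 29.3% and Abcc9 in 38.1% of the other cells. Per kilobase of exon, on the mean over mice, Rgs5 (1891 CPM per kb), Vtn (1607) and Kcnj8 (1592) were near each other, and Abcc9 stood at 491 CPM per kb. The subunits of the other KATP channel, the pore Kcnj11 and the receptor Abcc8, had no count in any of the 78 members.

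The 3 markers of the label outside the rule were higher in members in each mouse. Vtn, which encodes the adhesive glycoprotein vitronectin, stood at 3035, 3661 and 3088 CPM in members against 370, 266 and 64.3 CPM in the other cells (log2 change 4.13, SE 0.481, edgeR adjusted p = 0.00933). Steap4, a metalloreductase, stood at 3057, 4222 and 3281 CPM against 175, 157 and 69.8 CPM (log2 change 4.83, SE 0.308, edgeR adjusted p = 0.000781). P2ry14, a receptor for UDP-sugars, stood at 546, 451 and 981 CPM against 10.6, 12.3 and 6.64 CPM (log2 change 6.04, SE 0.55, edgeR adjusted p = 0.0033). Single cells of members and other cells overlapped for these 3 genes, as the counts over 1000 CPM show. All tested genes were measured in the same cells that the rule picked, so genes that track Kcnj8, Abcc9 or Rgs5 from cell to cell can differ through the choice of cells.

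Across all genes, 184 of 16708 (1.1%) passed an edgeR adjusted p of 0.05 between members and other cells, 61 higher (0.365%) and 123 lower (0.736%), and the median log2 change of all genes tested was -0.96. In the DESeq2 fit, which has its own scaling and test, that median was -0.85, and 2598 genes were called, of which 2395 were lower. Counts of genes by list below are edgeR's unless another tool is named. Of the 18 further pericyte markers tested, 7 were higher and none lower, and the median was 2.57. A positive log2 change was seen in 15 of them, beside 4498 of all 16708 genes. DESeq2 called 10 of them higher and limma 7, and neither called one lower. Pdgfrb, the receptor through which endothelial PDGF-B recruits pericytes, stood at 3102, 4679 and 3675 CPM against 544, 805 and 299 CPM (log2 change 2.91, SE 0.26, edgeR adjusted p = 0.0033). Cspg4, the NG2 proteoglycan whose promoter drives the red reporter, stood at 1254, 1125 and 862 CPM against 286, 237 and 85.8 CPM (log2 change 2.59, SE 0.33, edgeR adjusted p = 0.0138). The other called markers were Notch3 (log2 change 2.56), the respiratory chain genes Ndufa4l2 (2.64) and Cox4i2 (2.73), the angiotensin-cleaving aminopeptidase Enpep (3.35) and the gap junction gene Gjc1 (2.88). Gjc1 lost its call with limma, leaving out mouse 1 raised its edgeR adjusted p to 0.101, and in mouse 3 a single cell held 87.5% of its counts. Higd1b, a hypoxia-inducible-domain gene used as a pericyte marker, was at 671, 542 and 912 CPM against 118, 102 and 28.3 CPM and just missed edgeR's threshold (edgeR adjusted p = 0.0501), while DESeq2 and limma called it higher.

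Against Myh11-high cells, which stand for smooth muscle, 92 of 12934 genes (0.711%) passed, 26 higher (0.201%) and 66 lower (0.51%), with a median log2 change of -0.53 over all genes tested. DESeq2 called 1096 of these genes (8.47%), 273 higher and 823 lower, and limma 151 (1.17%), 60 higher and 91 lower. The 3 label markers were again higher: Vtn by 3.16, Steap4 by 3.76 and P2ry14 by 4.07 on the log2 scale (edgeR adjusted p = 0.00758, 0.00758 and 0.019). Pdgfrb was the called gene among 17 further pericyte markers, at 1.95 (SE 0.158, edgeR adjusted p = 0.00758), where Myh11-high cells stood at 780, 1173 and 924 CPM. Cspg4 was at 369, 536 and 721 CPM in Myh11-high cells and Notch3 at 509, 747 and 1192 CPM, and neither differed from members past the threshold (edgeR adjusted p = 0.37 and 0.664). The median log2 change of the list was 1.08.

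**Figure D2:**
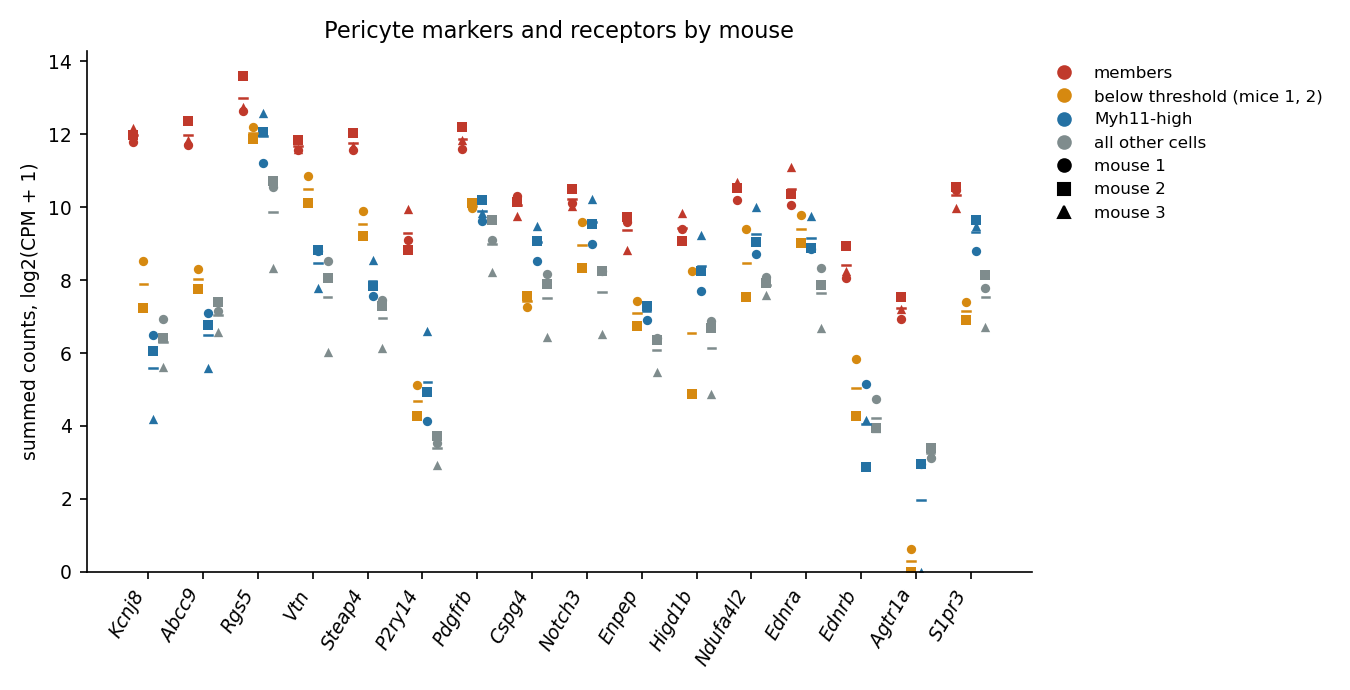
Summed counts per mouse, as log2(CPM + 1), of rule genes (Kcnj8, Abcc9, Rgs5), pericyte markers and receptors in members, below-threshold cells, Myh11-high cells and all other cells. Symbols are mice and short lines are means of these log2 values over mice. In P2ry14 the members stand at 451 to 981 CPM and the other cells at 6.64 to 12.3 CPM.

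Genes of the vasoactive receptor list differed in both directions. Of 29 vasoactive receptor genes tested, 3 were higher in members than in other cells and 2 lower, and the list's median log2 change was -2.58. DESeq2 called 5 higher and 9 lower, and limma 1 higher and 2 lower, with Ednra and Agtr1a losing their calls. Ednra, the endothelin receptor type A, stood at 1070, 1302 and 2199 CPM in members against 321, 234 and 102 CPM (log2 change 2.87, SE 0.507, edgeR adjusted p = 0.0477). Ednrb, the type B receptor, stood at 264, 491 and 301 CPM against 25.9, 14.3 and 14.3 CPM (log2 change 4.30, SE 0.544, edgeR adjusted p = 0.0138). Agtr1a, the angiotensin II type 1a receptor, stood at 121, 187 and 146 CPM against 7.79, 9.45 and 8.52 CPM (log2 change 4.14, SE 0.72, edgeR adjusted p = 0.0449). The receptors were unevenly spread over cells. Ednra had a count in 75 of 78 members, Ednrb in 40 and Agtr1a in 24, and in mouse 2 a single cell held 79.7% of the Agtr1a counts. The edgeR adjusted p of Agtr1a rose to 0.116 without mouse 1. After thinning to 50000 counts Ednrb was found in 38.5% of members and 6.54% of other cells, and Agtr1a in 21.8% and 4.25%.

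The receptors that were lower were Olfr78, an olfactory receptor of vascular smooth muscle (log2 change -5.75, edgeR adjusted p = 0.0331), and Mrgprf, a Mas-related orphan receptor (log2 change -4.70, edgeR adjusted p = 0.0449). Olfr78 was at 5.50, 2.37 and 0.804 CPM in members against 398, 607 and 1513 CPM in Myh11-high cells, where its log2 change was -7.87 (edgeR adjusted p = 0.019). Without mouse 1 the edgeR adjusted p of Olfr78 against all other cells was 0.0886. In the same comparison with Myh11-high cells Ramp1, a subunit of the receptor for the vasodilator peptide CGRP, stood at 4.54, 0.592 and 0.804 CPM against 274, 212 and 178 CPM (log2 change -7.11, edgeR adjusted p = 0.0215), and this call was lost without mouse 1 (edgeR adjusted p = 0.076). Ednra was at 466, 469 and 858 CPM in Myh11-high cells and did not pass against members (log2 change 1.30, SE 0.206, edgeR adjusted p = 0.0536), nor did Ednrb (log2 change 4.37, SE 0.783, edgeR adjusted p = 0.0839).

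Of 17 lysophospholipid and nucleotide receptors P2ry14 and S1pr3 were higher than in other cells and none was lower (median log2 change -2.56). DESeq2 called 3 of the 17 higher and 7 lower, and limma the same 2 higher. S1pr3, a sphingosine-1-phosphate receptor, stood at 1421, 1494 and 998 CPM against 218, 282 and 103 CPM (log2 change 2.82, SE 0.281, edgeR adjusted p = 0.00499). Downstream of such receptors, the G-protein subunits Gnb4 and Gng11 were higher among 18 G-protein genes (log2 change 1.78 and 2.09, edgeR adjusted p = 0.0403 and 0.0475), and none was lower. Limma also called 2 higher, whereas DESeq2 called 0 of the 18 higher and 2 lower. Gnb4 lost its call without mouse 1 (edgeR adjusted p = 0.219). Of 24 nitric oxide and cyclic nucleotide genes, 1 was higher and none lower: Gucy1b1, the beta subunit of the nitric oxide receptor guanylyl cyclase, at 712, 1432 and 826 CPM against 250, 381 and 90.6 CPM (log2 change 2.22, edgeR adjusted p = 0.0419). Neither DESeq2, which called 2 of the 24 higher and 3 lower, nor limma, which called 0, called Gucy1b1. Its partner Gucy1a1 stood at 1126, 1704 and 1447 CPM against 837, 841 and 317 CPM and did not pass (edgeR adjusted p = 0.174). Gucy1b1 did not pass against Myh11-high cells either (log2 change 0.37, SE 0.248, edgeR adjusted p = 0.759).

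None of 25 other potassium channel genes passed edgeR's test against other cells, in either direction, and 13 of the 25 had an unadjusted p under 0.05. By DESeq2, 11 of the 25 were called lower and 0 higher, and by limma 0 were called. Their median log2 change was -4.45, beside -0.96 for all genes tested. The other-cell sums held 54723669 to 109276315 counts per mouse and those of members 1243950 to 17630797. A gene scarce in members could thus pass the filter through the other-cell sums, and the part of this in the median was not tested. Against below-threshold cells 6 of the 12 tested had a positive log2 change, with a median of -0.86. The most abundant in members was Kcne4, an accessory subunit, at 287, 346 and 311 CPM against 163, 207 and 40.9 CPM (edgeR adjusted p = 0.191). Against Myh11-high cells Kcnab1, a channel beta subunit, was lower, at 9.76, 1.78 and 2.41 CPM against 310, 399 and 425 CPM (log2 change -6.61, edgeR adjusted p = 0.0205). Of 30 calcium and TRP channel and store genes, Casq2, the calcium buffer calsequestrin, was higher than in other cells at 891, 1203 and 1593 CPM against 232, 253 and 78.6 CPM (log2 change 2.83, edgeR adjusted p = 0.0449). Limma called 1 of the 30 higher as well, and DESeq2 called 3 higher and 6 lower. Casq2 stood at 491, 799 and 1576 CPM in Myh11-high cells, with a log2 change of 0.45 (SE 0.245, edgeR adjusted p = 0.686). The chloride channel Ano1 had a log2 change of 2.53 against other cells and did not pass (edgeR adjusted p = 0.0721).

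Contractile genes separated members from Myh11-high cells. Of 29 genes tested, 13 were lower in members and none higher, with a median log2 change of -2.26, and DESeq2 called 17 and limma 14 lower with none higher. Acta2, smooth muscle alpha-actin, stood at 1003, 1016 and 1109 CPM in members against 5029, 7638 and 7587 CPM (log2 change -2.71, SE 0.173, edgeR adjusted p = 0.00548). Tagln, an actin-bundling protein, stood at 216, 188 and 336 CPM against 2159, 2834 and 2415 CPM (log2 change -3.40, SE 0.265, edgeR adjusted p = 0.00758). Cnn1, calponin, was close to absent, at 11.3, 6.51 and 2.41 CPM against 1209, 1321 and 484 CPM (log2 change -7.32, SE 0.413, edgeR adjusted p = 0.00548). Smaller differences were seen for Mylk, the kinase of the myosin light chain (-2.26), Myl9 (-2.15), Tpm1 (-1.88) and Tpm2 (-1.75). Members thus carried actin, light chain and tropomyosin transcripts at reduced levels and little calponin.

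Leaving out mouse 1 gave an edgeR adjusted p of 0.0843 for Tpm1 and 0.0849 for Tpm2. The low Myh11 of members is part of the rule, as is the high Myh11 of the comparison cells, and contractile genes that follow Myh11 share in that choice. Against all other cells 2 of 29 contractile genes were lower and none higher (median log2 change -0.53): Cnn1 (log2 change -5.25, edgeR adjusted p = 0.0154) and the non-muscle myosin Myh10 (-7.00, edgeR adjusted p = 0.0241). Acta2 did not pass there, where the other cells of mice 1, 2 and 3 stood at 2889, 2840 and 563 CPM (edgeR adjusted p = 0.548). Myh10 had an edgeR adjusted p of 0.0611 without mouse 1 and was not called by limma, and DESeq2 called 6 of the 29 lower.

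**Figure D3:**
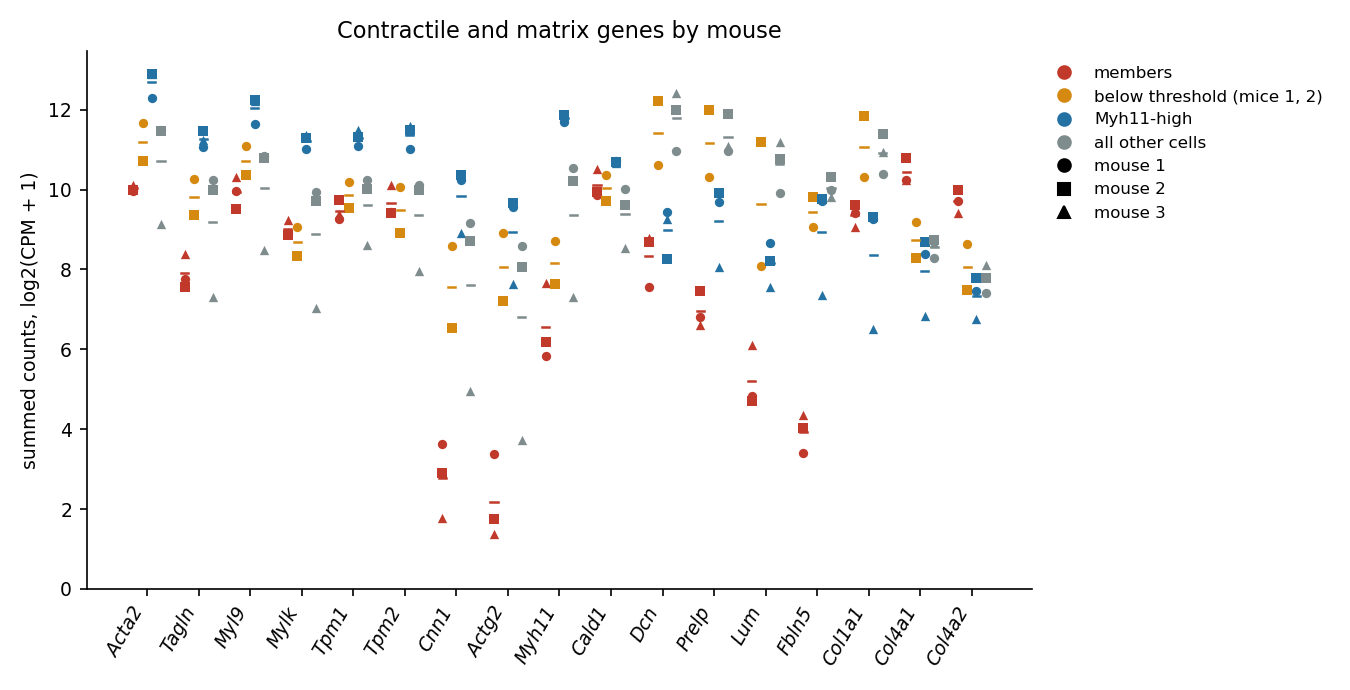
Summed counts per mouse, as log2(CPM + 1), of contractile and matrix genes in the same groups as above. Symbols are mice and short lines are means of these log2 values over mice, and Myh11 is a gene of the rule. Cnn1 lies at 2.41 to 11.3 CPM in members and at 484 to 1321 CPM in Myh11-high cells.

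The collagen IV chains Col4a1 and Col4a2, the network of the basement membrane, were higher in members by edgeR and limma. Col4a1 stood at 1211, 1784 and 1205 CPM against 313, 428 and 406 CPM in other cells (log2 change 1.88, SE 0.226, edgeR adjusted p = 0.0108), and Col4a2 at 839, 1020 and 683.3 CPM against 170, 220 and 276 CPM (log2 change 1.97, SE 0.313, edgeR adjusted p = 0.0341). With Sparcl1, a matricellular protein (log2 change 0.93, edgeR adjusted p = 0.0372), 3 of 22 basement membrane genes were higher and none lower, with a median log2 change of -0.60. The balance differed by tool: limma called 2 of the 22 higher and 0 lower, and DESeq2 called 0 higher and 7 lower, with none of these 3 genes called. Against Myh11-high cells Col4a1 (2.42), Col4a2 (2.33) and the laminin chain Lamb1 (3.67) were higher, and the laminin chain Lama5 (-7.50) and the integrin ligand Npnt (-7.15) lower. Collagen IV was thus above all other cells and above Myh11-high cells in each mouse. Against below-threshold cells edgeR and limma called 0 of 20 basement membrane genes, and DESeq2 called 2 higher and 1 lower.

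Several of these calls rested on mouse 1. Without it, the edgeR adjusted p against other cells was 0.0731 for Col4a2 and 0.162 for Sparcl1. Against Myh11-high cells it was 0.0637 for Col4a1, 0.0994 for Col4a2, 0.0963 for Lamb1 and 0.305 for Npnt. Lamb1 also lost its call without mouse 2 (edgeR adjusted p = 0.111).

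Interstitial matrix genes of the kind that fibroblasts make were lower in members than in other cells, 13 of 31 with none higher (median log2 change -1.52), and DESeq2 called 15 and limma 13 lower. Dcn, the collagen-binding proteoglycan decorin, stood at 186, 408 and 437 CPM against 1989, 4067 and 5473 CPM (log2 change -3.43, SE 0.171, edgeR adjusted p = 0.000313). Prelp and Lum, proteoglycans of the same family, changed by -4.35 and -5.42, and Fbln5, an elastic fibre protein, by -6.21 (edgeR adjusted p = 0.000313, 0.000781 and 0.000781). Col1a1 was lower by less, at 682.6, 778 and 537 CPM against 1344, 2687 and 1969 CPM (log2 change -1.52, edgeR adjusted p = 0.0341). The other cells include fibroblasts: the summed level of 8 fibroblast markers had a median of 14322 CPM in the 871 other cells, 2348 CPM in Myh11-high cells and 1661 CPM in members. The part of this makeup in the matrix calls was not tested. Against Myh11-high cells, which hold fewer fibroblast transcripts, 2 of 31 were higher, the TGF-beta binding protein Ltbp4 (log2 change 1.97) and the collagen chain Col5a3 (5.53), and 2 lower, Eln (-5.01) and Fbln5 (-5.24), with a median of -0.27. DESeq2 called 4 higher and 8 lower there, and limma 5 and 1. These 4 calls were lost without mouse 1 (edgeR adjusted p = 0.068, 0.111, 0.198 and 0.1).

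**Figure D4:**
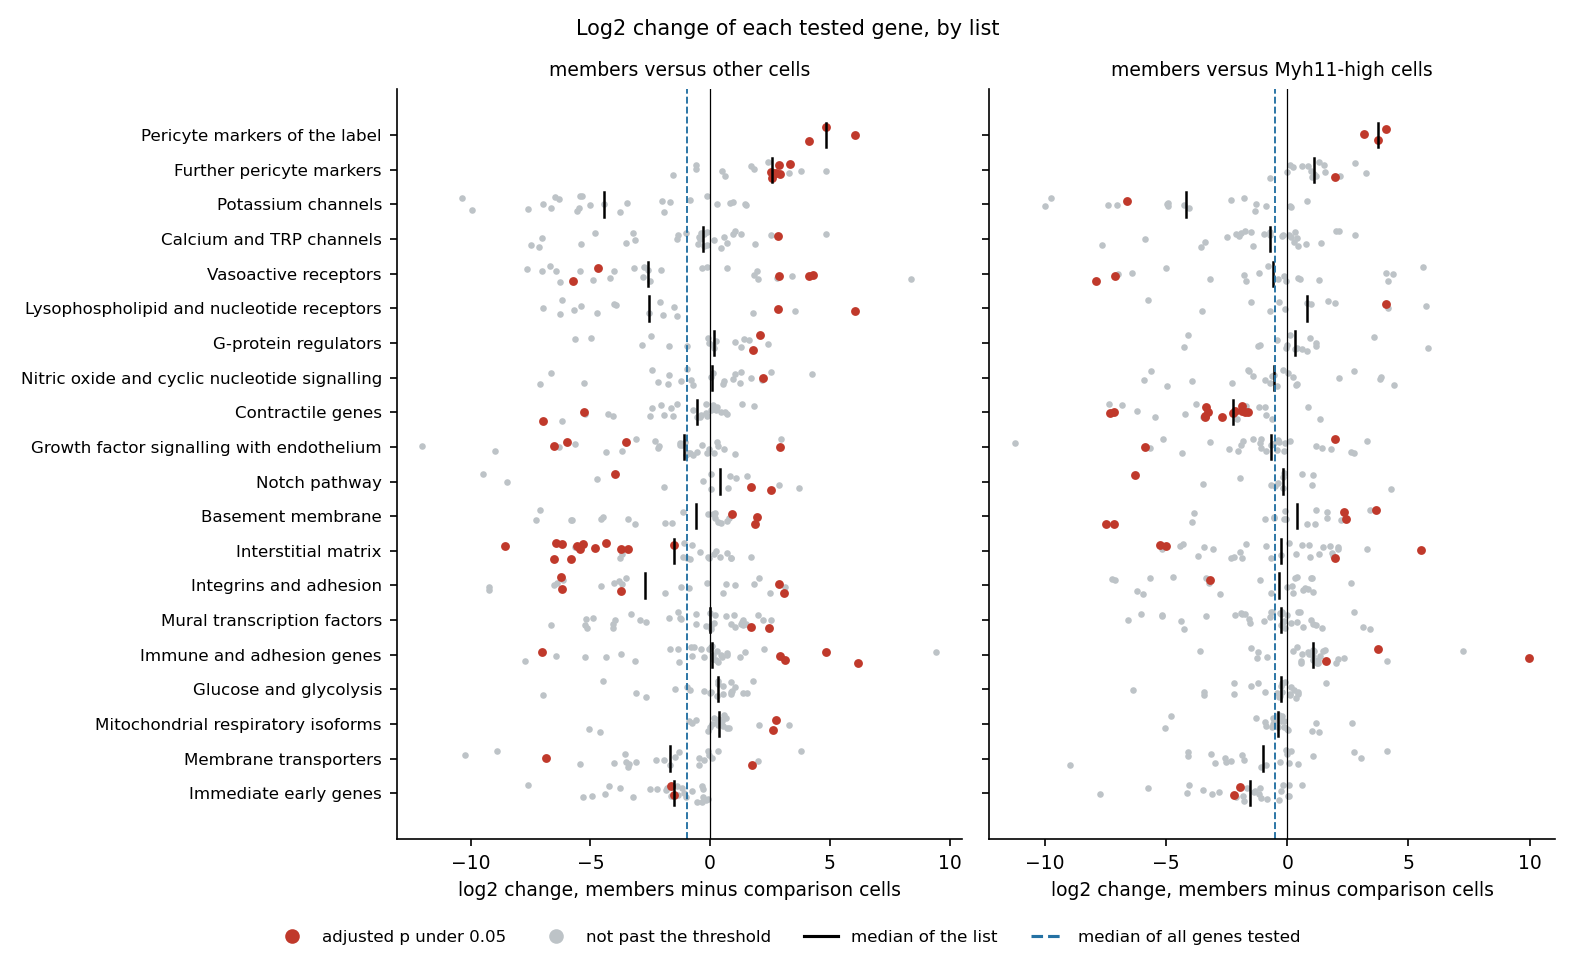
Log2 change of each tested gene by list, for members against all other cells (left) and against Myh11-high cells (right). Red points passed an edgeR adjusted p of 0.05, short black lines are list medians, and dashed lines mark the median of all genes tested (-0.96 and -0.53). Contractile genes show 13 red points on the right and 2 on the left.

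In the Notch list, Notch3 and its target Heyl were higher than in other cells and Nrip2 lower, of 16 tested (median log2 change 0.40). DESeq2 called 2 higher and 3 lower, without Heyl, and limma 2 and 1. Heyl, a transcriptional repressor, stood at 1521, 2040 and 1400 CPM against 538, 670 and 367 CPM (log2 change 1.70, SE 0.21, edgeR adjusted p = 0.0126). Nrip2, a nuclear receptor partner, stood at 16.3, 15.4 and 4.02 CPM against 220, 265 and 69.9 CPM (log2 change -3.96, edgeR adjusted p = 0.0376), and against 495, 852 and 1652 CPM in Myh11-high cells (-6.28, edgeR adjusted p = 0.0222). Of 38 mural transcription factors Heyl and the forkhead factor Foxs1 were higher than in other cells, Foxs1 by 2.45 (edgeR adjusted p = 0.0334), and none was lower (median log2 change 0.0022). DESeq2 called 2 of the 38 higher, without Heyl, and 8 lower, and limma 1 higher, without Foxs1. Myocd, the coactivator of contractile genes, was at 5.79, 29.0 and 1.61 CPM in members and 492, 399 and 589 CPM in Myh11-high cells, and just missed the threshold there (log2 change -6.05, SE 0.964, edgeR adjusted p = 0.055). Without mouse 1 the edgeR adjusted p against other cells was 0.17 for Nrip2 and 0.0875 for Foxs1.

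Of 32 growth factor genes Pdgfrb was higher than in other cells, and Pdgfra, Fgfr1 and Igf1 were lower (median log2 change -1.10). DESeq2 called 2 higher and 9 lower, and limma 1 and 2, without Pdgfra. Pdgfra, the PDGF receptor of fibroblasts, stood at 0.511, 0.592 and 9.65 CPM in members against 49.0, 224 and 370 CPM (log2 change -6.51, edgeR adjusted p = 0.0175). Fgfr1 was at 10.2, 1.78 and 4.82 CPM against 247, 310 and 394 CPM (log2 change -5.97, edgeR adjusted p = 0.0138) and was also lower than in Myh11-high cells (-5.86, edgeR adjusted p = 0.0215). Among 26 integrin and adhesion genes, Gjc1 and Itga7 were higher and Cd9, Ncam1 and Cdh11 lower (median log2 change -2.71). DESeq2 called 3 higher and 12 lower, and limma 1 of each, Itga7 and Cd9. Itga7, the alpha chain of a laminin receptor, stood at 1050, 1356 and 990 CPM against 267, 178 and 51.7 CPM (log2 change 3.07, SE 0.453, edgeR adjusted p = 0.0259), and the tetraspanin Cd9 at 67.6, 59.8 and 57.1 CPM against 851, 837 and 772 CPM (log2 change -3.71, edgeR adjusted p = 0.00275). Without mouse 1 the edgeR adjusted p was 0.472 for Ncam1 and 0.0985 for Cdh11, and without mouse 2 it was 0.176 for Cdh11.

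Members also differed in immune and leukocyte adhesion genes, where 4 of 35 were higher than in other cells and 1 lower (median log2 change 0.09). DESeq2 called 5 higher and 6 lower, and limma 3 and 1, without Sele. Besides Steap4 these were Il34, a ligand of the macrophage receptor CSF1R (log2 change 2.90, edgeR adjusted p = 0.0248), Ifitm1, an interferon-induced membrane protein (3.15, edgeR adjusted p = 0.0207), and Sele. Complement C3 was lower (-7.04, edgeR adjusted p = 0.00395). Sele, the leukocyte-binding E-selectin best known from activated endothelium, stood at 146, 75.8 and 166 CPM in members against 1.43, 1.95 and 1.91 CPM in other cells (log2 change 6.16, SE 0.945, edgeR adjusted p = 0.03) and at most 0.327 CPM in Myh11-high cells (edgeR adjusted p = 0.0215). It was present in 24 of 78 members, and in mouse 3 a single cell held 100% of its counts. Its edgeR adjusted p without mouse 1 was 0.0957 against other cells and 0.174 against Myh11-high cells.

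Endothelial markers were uneven. Fabp4, a fatty acid binding protein abundant in heart capillary endothelium, was at 399, 474 and 209 CPM in members against 92.5, 60.3 and 15.9 CPM (log2 change 2.96, SE 0.483, edgeR adjusted p = 0.0375), a call that limma did not make. Egfl7, Emcn and Cldn5 had negative log2 changes (-0.52, -3.25 and -3.99) and did not pass (edgeR adjusted p = 0.893, 0.541 and 0.487). With an endothelial threshold of 200 CPM, applied to members and other cells alike, Egfl7 and Emcn stood at 1.46 and 1.08. Other cells of mice 1, 2 and 3 then numbered 288, 214 and 320 instead of 311, 232 and 328. Members numbered 56, 13 and 8 instead of 57, 13 and 8. The summed level of 8 endothelial markers had a median of 347 CPM in members, 13.5 CPM in other cells and 17.4 CPM in Myh11-high cells, and Cdh5 was at 0 in all members. Fabp4 alone had a median of 287.5 CPM in members, and 200.7 CPM in members with Sele against 334 CPM in those without. The rule itself limits 4 of those endothelial genes. Among the 24 members with Sele, none had a count of Cdh5, Kdr or Tie1, 2 had Cldn5, 3 Emcn and 14 Pecam1, and the sum of these 6 genes had a median of 3.4 CPM, against 4.73 CPM in the 54 members without Sele. The highest sum of these 6 genes was 1226 CPM in members with Sele and 37.8 CPM in those without. The member whose endothelial sum in the rule was 773 CPM held Sele at 699 CPM. With the endothelial threshold lowered to 200 CPM in members and other cells alike, Sele differed from other cells by 6.58 on the log2 scale (edgeR adjusted p = 0.0286). The part of endothelial RNA in the Fabp4 and Sele levels was not tested.

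Of the other marker classes, cardiomyocyte genes had a summed median of 34.2 CPM in members against 37.6 CPM in other cells, with 6 members over 1000 CPM. The medians were 11.1 CPM for Schwann cell genes, 8.35 CPM for endocardial genes and 0 for leukocyte, mesothelial and erythroid genes, and 1 member exceeded 1000 CPM of erythroid genes. The 6 pericyte markers summed to a median of 22426 CPM in members against 206 CPM in other cells and 2592 CPM in Myh11-high cells, and 3 of those 6 are genes of the rule. The 8 smooth muscle markers, which include Myh11 of the rule, summed to a median of 1519 CPM in members and 15972 CPM in Myh11-high cells. Their median was 5933 CPM in below-threshold cells and 1017 CPM in all other cells.

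Fos and Zfp36, genes of the immediate early response that dissociation of tissue can induce, were lower in members. Fos, a transcription factor, stood at 668, 605 and 862 CPM against 1611, 1906 and 2666 CPM in other cells (log2 change -1.49, SE 0.195, edgeR adjusted p = 0.0154), and at 1854, 2365 and 4106 CPM in Myh11-high cells (-1.94, SE 0.221, edgeR adjusted p = 0.019). With Zfp36, which promotes decay of messenger RNA (log2 change -1.65, edgeR adjusted p = 0.045), 2 of 27 were lower and none higher, and the list's median of -1.49 stood beside -0.96 for all genes. Limma also called 2 lower, and DESeq2 called 6 lower, without Fos and Zfp36. No gene of this list had a positive log2 change against other cells, where 4498 of all 16708 genes tested had one. Against Myh11-high cells 4 of 26 genes of the list had one, beside 4498 of all 12934. Fos was carried by a minority of members: 14 of 78 exceeded 1000 CPM and the median was 56.3 CPM, whereas 478 of 871 other cells exceeded it, with a median of 1449 CPM. In mouse 2 a single member held 61.1% of the Fos counts and in mouse 3 another held 75.8%. Zfp36 lost its call without mouse 1 (edgeR adjusted p = 0.0875) and without mouse 2 (0.109), and against Myh11-high cells without mouse 1 (0.0689).

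None of 23 glucose and glycolysis genes passed edgeR's test against other cells, 6 had an unadjusted p under 0.05, and their median log2 change was 0.32. DESeq2 called 2 of the 23 lower and limma 0. Of 23 mitochondrial genes the isoforms Ndufa4l2 and Cox4i2 were higher and none was lower (median 0.37), DESeq2 called 3 higher and 2 lower, and limma 3 and 0. Ndufa4l2 stood at 1180, 1486 and 1649 CPM against 272, 240 and 191 CPM (SE 0.273, edgeR adjusted p = 0.00608) and Cox4i2 at 695, 979 and 1023 CPM against 200, 182 and 66.2 CPM (SE 0.451, edgeR adjusted p = 0.0384). Among 25 membrane transporters, whose median log2 change was -1.66, 1 was higher and 1 lower. The lower was the water channel Aqp1 (-6.84, edgeR adjusted p = 0.00806). Limma called 0 of the 25, and DESeq2 1 higher and 9 lower.

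Besides Sele and P2ry14 the genes highest over other cells by log2 change were Iqsec3, an exchange factor for ARF proteins (6.43), Cpm, the membrane enzyme carboxypeptidase M (5.85), the small GTPase Rab37 (5.56), the scavenger receptor Scarf1 (5.56), Pianp (5.05) and Il2ra, a chain of the interleukin 2 receptor (5.00). Cpm stood at 461, 591 and 582 CPM against 12.7, 8.97 and 7.66 CPM (SE 0.456, edgeR adjusted p = 0.00218) and had counts in 59 of 78 members. Single cells weighed heavily in several of the others, holding 99.3% of the Pianp counts in mouse 2, 97.1% of the Il2ra counts in mouse 3 and 84.9% of the Rab37 counts in mouse 2. Without mouse 1 the edgeR adjusted p was 0.127 for Pianp and 0.266 for Il2ra. The lowest against other cells were Ltbp2 (-8.55), Gpnmb (-8.30), Adcy7 (-8.02), Armh4 (-7.95), Myoc (-7.74), Scara5 (-7.60), Pamr1 (-7.49) and Smim3 (-7.44). Of these, Pamr1 was at 1.42, 2.96 and 1.61 CPM against 398, 427 and 203.7 CPM (edgeR adjusted p = 0.00275). Gpnmb, Armh4 and Smim3 lost their calls without mouse 1 (edgeR adjusted p = 0.0674, 0.214 and 0.0577), Armh4 without mouse 2 (0.0653) and Scara5 without mouse 3 (0.147).

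Over Myh11-high cells the largest differences besides Sele were those of Scarf1 (7.68), the receptor-like Ptk7 (6.06), the phospholipase Pla1a (5.84), the glucocorticoid-activating enzyme Hsd11b1 (5.68), the adhesion receptor Adgrf5 (5.56), Col5a3 (5.53) and the death receptor Tnfrsf21 (5.22). Tnfrsf21 stood at 892, 958 and 978 CPM in members against 34.5, 5.48 and 65.7 CPM (SE 0.781, edgeR adjusted p = 0.0456). Without mouse 1 these 7 genes had edgeR adjusted p of 0.0595, 0.223, 0.0696, 0.344, 0.115, 0.111 and 0.0605 in the same order, and Ptk7 had 0.069 without mouse 2. On the other side Reep1 (-8.58), Olfr78 (-7.87), the ectonucleotidase Entpd1 (-7.65), Lama5 (-7.50), the exchange factor Net1 (-7.39), the sarcoglycan Sgca (-7.38), Cnn1 (-7.32) and Itih4 (-7.24) were lowest. Entpd1, which breaks down extracellular ATP, stood at 5.73, 1.18 and 1.61 CPM in members against 507, 422 and 647 CPM in Myh11-high cells (SE 0.66, edgeR adjusted p = 0.00821). Net1 lost its call without mouse 1 (edgeR adjusted p = 0.0878).

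Members were then set against the below-threshold cells, which met the Rgs5, Myh11 and endothelial conditions but had less Kcnj8 and Abcc9. Mice 1 and 2 entered this fit with 31 and 15 such cells, and mouse 3 had 4, under the minimum of 5. Of 12508 genes 15 (0.12%) passed, all of them lower in members, and 746 had an unadjusted p under 0.05. The call depended on the fit: DESeq2 called 221 genes higher and 416 lower (5.09% of the genes tested), edgeR called 0 without the mouse as a block, and it called 0 when the members' threshold was lowered to 1500 CPM. Among the 15 were the matrix genes Fmod (6.13 and 46.2 CPM in members of mice 1 and 2 against 376 and 2333 CPM), Mfap4 (10.8 and 26.6 against 602 and 1994 CPM), Fbln1 and Fbln5. The 8 with the largest differences were Tgfbi (-8.27), Papss2 (-7.93), Pamr1 (-7.92), Cilp (-7.71), Ptgis (-7.27), Trf (-6.91), Aqp1 (-6.78) and Cd34 (-6.51), several of which are known from fibroblasts. Below-threshold cells held 6204 CPM of summed fibroblast markers at the median and reached 34721 CPM, so part of that group carried fibroblast transcripts, and the part this played in the 15 calls was not tested.

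None of the pericyte markers passed edgeR's test in that comparison. The 3 markers that come with the label all had an unadjusted p under 0.05, and DESeq2 and limma each called 2 of them higher. Of 17 further pericyte markers, 12 had an unadjusted p under 0.05, DESeq2 called 9 higher and limma 3, and neither called one lower. Vtn was at 1864 and 1109 CPM in below-threshold cells of mice 1 and 2 (log2 change 1.14, SE 0.407, edgeR adjusted p = 0.812) and Steap4 at 944 and 588 CPM (log2 change 2.20, SE 0.435, edgeR adjusted p = 0.27). P2ry14 was at 33.6 and 18.2 CPM, the widest gap of the 3 (log2 change 4.25, SE 0.557, edgeR adjusted p = 0.0751). Pdgfrb stood at 1007 and 1103 CPM (log2 change 1.78, SE 0.369, edgeR adjusted p = 0.293) and Acta2 at 3264 and 1673 CPM (log2 change -1.28, SE 0.409, edgeR adjusted p = 0.692). With 2 mice, a difference that missed the threshold does not show that the levels were alike.

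Within the members Vtn and Steap4 were high in most cells, as given above, and Pdgfrb exceeded 1000 CPM in 76 of 78. The label marker P2ry14 was less evenly spread, and Ednra exceeded 1000 CPM in 36. Acta2 exceeded 1000 CPM in 28 members, with a median of 306 CPM and a range of 42.6 to 5085 CPM, whereas all 251 Myh11-high cells exceeded it with a median of 6087 CPM. Tagln exceeded 1000 CPM in 7 members and in 237 of the 251. Members with more Acta2 had more Tagln, with r = 0.78, 0.86 and 0.42 across the 57, 13 and 8 cells of mice 1, 2 and 3, and less Kcnj8, with r = -0.48, -0.54 and -0.06. Kcnj8 and Abcc9 correlated with r = 0.32, 0.63 and -0.48, and by rank with Spearman coefficients of 0.39, 0.70 and 0. These correlations are on the log2 scale across cells that share a mouse, a plate and, within each cell, 1 total, and the summed threshold on Kcnj8 and Abcc9 shapes their relation, so they are a description and have no test. Kcnj8 plus Abcc9 itself fell with the count total of a cell, at r = -0.43, -0.10 and -0.65.

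**Figure D5:**
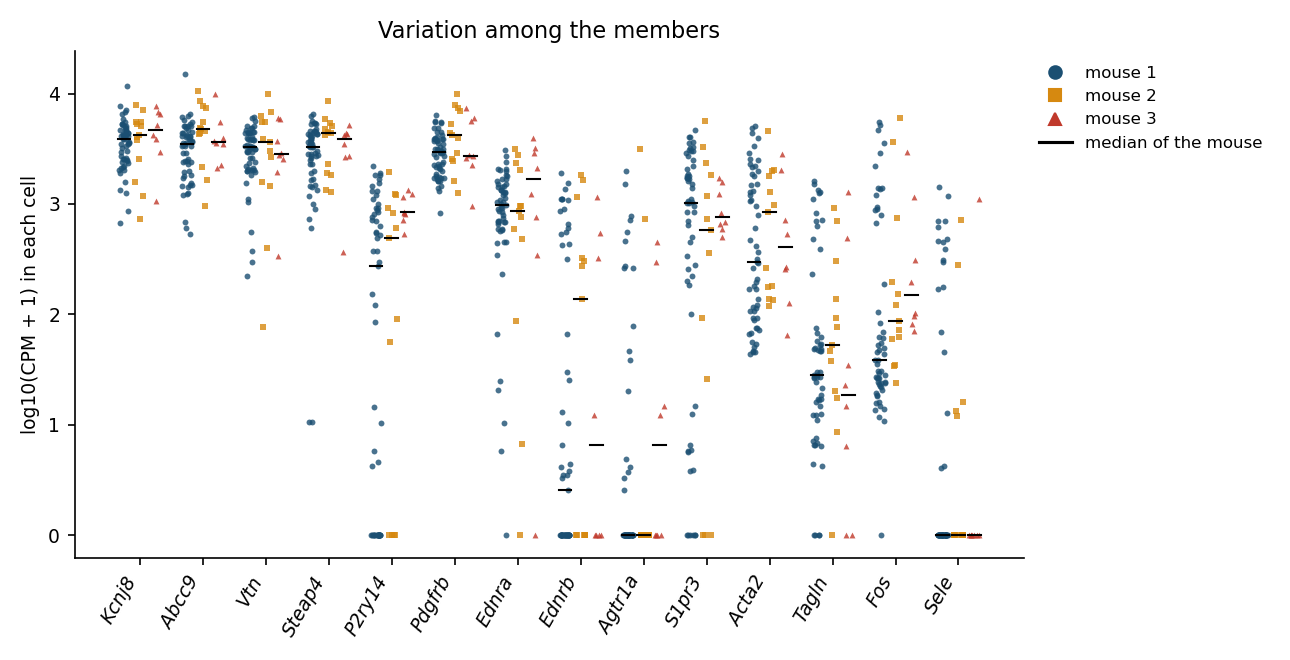
Level of 14 genes in each of the 78 members as log10(CPM + 1), separated by mouse, with the median of each mouse as a black line. Vtn, Steap4 and Pdgfrb lie mostly above 1000 CPM, while Acta2 ranges from 42.6 to 5085 CPM and Sele has counts in 24 cells.

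Cells over the Kcnj8 plus Abcc9 threshold also occurred on the C57BL/6 plate, but with endothelial genes. There 5 of 347 cells reached 2500 CPM, at 2991 to 5428 CPM, and all of them failed the endothelial condition alone, with sums of 1196 to 4045 CPM. They held Rgs5 at 2744 to 6270 CPM, Vtn at 452 to 2464 CPM and Fabp4 at 1159 to 2635 CPM. In the double-reporter mice 2 cells failed in the same way. Whether such wells held a pericyte together with endothelial material was not tested.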

How the data were processed

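Single mouse heart cells were profiled with Smart-Seq2, per the labels' protocols. The authors deposited a table of whole-number counts per gene and cell (46517 genes, 46005 with a symbol), and the submitters' processing notes name bcl2fastq, Bowtie, Bowtie2, Subread and featureCounts with GRCm38 (mm10). Versions and the strand setting are not given in the sources used here, so overlapping genes on opposite strands cannot be told apart.

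CPM was computed from each cell's total over all genes. Members were taken by the rule, counts were summed per mouse over groups of at least 5 cells, and edgeR 4.0.16 in R 4.3.3 compared the sums (quasi-likelihood test, filterByExpr, TMM, Benjamini-Hochberg over all genes). Mouse entered the model as a block, since the sums of a pair share an animal. Deviations of paired sums correlated weakly: r was 0.12, 0.0955 and 0.0929 in mice 1, 2 and 3 for members and other cells, 0.146, 0.00646 and 0.0832 for members and Myh11-high cells, and 0.0418 for members and below-threshold cells. The filter on low counts left 16708, 12934 and 12508 genes, and the count of each list refers to members of the list that passed it. Genes scarce in members could pass it through the larger sums of the comparison cells, and the part of this in the list medians was not tested. Detection shares were computed after thinning each cell to 50000 counts, in Python 3.11.15. No doublet caller was run on these sorted plates. No cell pair held identical counts. Scripts were tested on simulated data.

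The members, gene lists and marker lists were chosen with earlier results of these data known. Per comparison, the text names the 8 largest log2 changes each way among called genes that have a symbol, average log2 CPM no lower than 5 and 1 direction over the mice, and up to 4 genes of each of 20 lists. Further genes, among them Agtr1a, Myocd, the other called list members and the genes without a call, were named after their values were seen. Some genes that the lists hold are not reported here. Alternatives were upper-quartile scaling, a DESeq2 1.42.0 fit with its own scaling and test, limma 3.58.1, no filter and no block. Further ones were other thresholds of the rule, deeper cells and leaving out each mouse.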

Additional observations from a re-analysis of the deposited data

How the results depend on the processing

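Between members and other cells the 184 calls became 2598 with DESeq2 (155 of the 184 among them), and 210 to 620 on leaving out a mouse, lowest without mouse 1 and highest without mouse 3. In the other alternatives run the count lay between 123 (limma) and 246 (without the pairing of sums by mouse, that is without the block). Between members and Myh11-high cells the 92 calls became 1096 with DESeq2, 342 without the filter on low counts, 160 without the block, 151 with limma, and 43 to 208 on leaving out a mouse. Against below-threshold cells the calls, 0.12% of the genes tested, became 5.09% with DESeq2, 0.967% without the filter, 0.512% with limma, 0 without the block and 0, 0.305%, 0.715%, 0.223% and 0.186% with a Kcnj8 plus Abcc9 threshold of 1500 or 4000 CPM, an Rgs5 threshold of 500 CPM, a Myh11 threshold of 500 CPM and cells of at least 100000 counts. The fit with the Rgs5 threshold of 500 CPM also took in mouse 3, which then had 8 below-threshold cells. The other fits of this comparison held mice 1 and 2. Leaving out a mouse could not be fitted against below-threshold cells in the main setting, as 1 mouse was left. The causes were not tested.

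Of the 137 gene differences given in the report, with 1864 values under alternatives, 212 of these values lost a call and 59 gained one, and 2 without a call changed direction: Egfl7 against other cells to 0.57 without the block, 1.46 with an endothelial threshold of 200 CPM and between -1.33 and 0.063 on leaving out a mouse, and Emcn to 1.08 with that threshold. The endothelial threshold of 200 CPM was applied to the other cells as well as to members. Without the block P2ry14, Tpm2, Col4a1 and Adgrf5 lost their calls against Myh11-high cells, as did 12 genes against other cells and all 12 named against below-threshold cells. The shares of members ranged over 13.3% to 17.7%, 3.20% to 6.53% and 1.64% to 2.38% in mice 1, 2 and 3. The sums of members in mice 2 and 3 hold 13 and 8 cells, so single cells weigh heavily there, and 3 mice on 3 plates limit every comparison.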
